A study of Homo sapiens with 6 samples.

Results

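Genes for the synthesis of glycerolipids and phospholipids were examined in BT-549 cells grown with or without medium from adipocytes. The group was chosen by symbol and holds 40 of the 63140 genes listed, covering triglyceride synthesis, the Kennedy pathway, cardiolipin synthesis and the acyltransferases that remodel phospholipids. In this pathway glycerol-3-phosphate is acylated to lysophosphatidate and phosphatidate, and phosphatidate is either dephosphorylated to diacylglycerol or activated to CDP-diacylglycerol. Diacylglycerol is then acylated to triglyceride, the core lipid of lipid droplets, or joined to activated choline or ethanolamine to give phosphatidylcholine (PC) and phosphatidylethanolamine (PE), while CDP-diacylglycerol leads to phosphatidylinositol and cardiolipin. In the remodelling cycle, lysophospholipids that have lost a fatty acid receive a new one, which sets the acyl chains of a membrane.

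BT-549 is a human triple negative breast cancer line of wild-type genotype by its labels. Cells were grown for 24 h in unconditioned medium (UCM, n = 3 libraries) or in adipocyte-conditioned medium (ACM, n = 3 libraries). All 6 libraries were made from polyA RNA. The study made its ACM by culturing mouse OP9 adipocytes in a low-serum medium with insulin, oleate and albumin, and the sample labels give the ACM as 50% whereas the supplementary methods describe undiluted ACM for sequencing. The growth medium of the line is given as RPMI with serum and insulin, but the sources used here do not say whether this was the UCM, so oleate, insulin, serum and base medium cannot be told apart from what the adipocytes released. Only 1 cell line was used. The paper describes seeding in a 6-well plate with 3 replicates per condition. Nothing in the labels says whether the wells of a condition came from separate cultures. The p-values therefore judge differences against the spread between these libraries. The libraries held 17135288 to 21053257 expected counts assigned to genes. The labels call the cells epithelial, but EPCAM, KRT8, KRT18 and KRT19 had at most 14 counts in any library, CDH1 had 8 to 34, and the mesenchymal gene VIM had at least 51679. Of 6 adipocyte genes, ADIPOQ, CIDEC and LEP had 0 counts in all 6 libraries, and PLIN1, FABP4 and LPL had at most 2 counts in any library. In bulk RNA, fewer cells of one kind and less RNA per cell cannot be told apart.

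Levels were compared between genes as TPM, which is a length-scaled abundance, and between conditions as CPM, which scales the counts of a gene to the size of its library. Differences were tested with edgeR's quasi-likelihood test, and a gene was called at a Benjamini-Hochberg adjusted p at or below 0.05 over all 14451 genes that passed a filter on low counts. Log2 fold changes are ACM over UCM.

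Of the 40 genes, 39 passed the filter and 5 were called. LPCAT1, which makes PC from lysoPC, was 2.56-fold higher in ACM. LPIN1, MBOAT1, PCYT2 and PCYT1B were lower, at 0.615, 0.594, 0.733 and 0.265 of their UCM levels. The other 34 tested genes, which include most enzymes of triglyceride, PC, PE and cardiolipin synthesis, lay between −0.31 and 0.38 on the log2 scale and were not called. Of the 39 pathway genes, 1 was called higher and 4 lower, or 12.8% in either direction, beside 3.35% higher and 2.21% lower among all genes tested. Of the 4 lower calls, only that of LPIN1 held whichever library was left out. At an unadjusted p at or below 0.05, the pathway count was 11, with 6 higher and 5 lower, which is 28.2% beside 23.3% of all genes. The CPM of the ACM and UCM libraries did not overlap for 14 of the 39 genes, with 7 above and 7 below UCM, or 35.9% beside 29.0% of all genes. The median log2 fold change was 0.04 for the pathway genes and −0.01 for all genes, with 24 pathway genes above 0 and 15 below it. For 31 of the 39 genes the 95% interval lay within a 1.5-fold change in either direction, beside a share of 62.0% of all genes. The pathway genes and all genes were not matched for level, on which the width of an interval depends. The exceptions among the pathway genes were the 5 called genes together with CHKA, CHKB and CDS1.

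**Figure D1:**
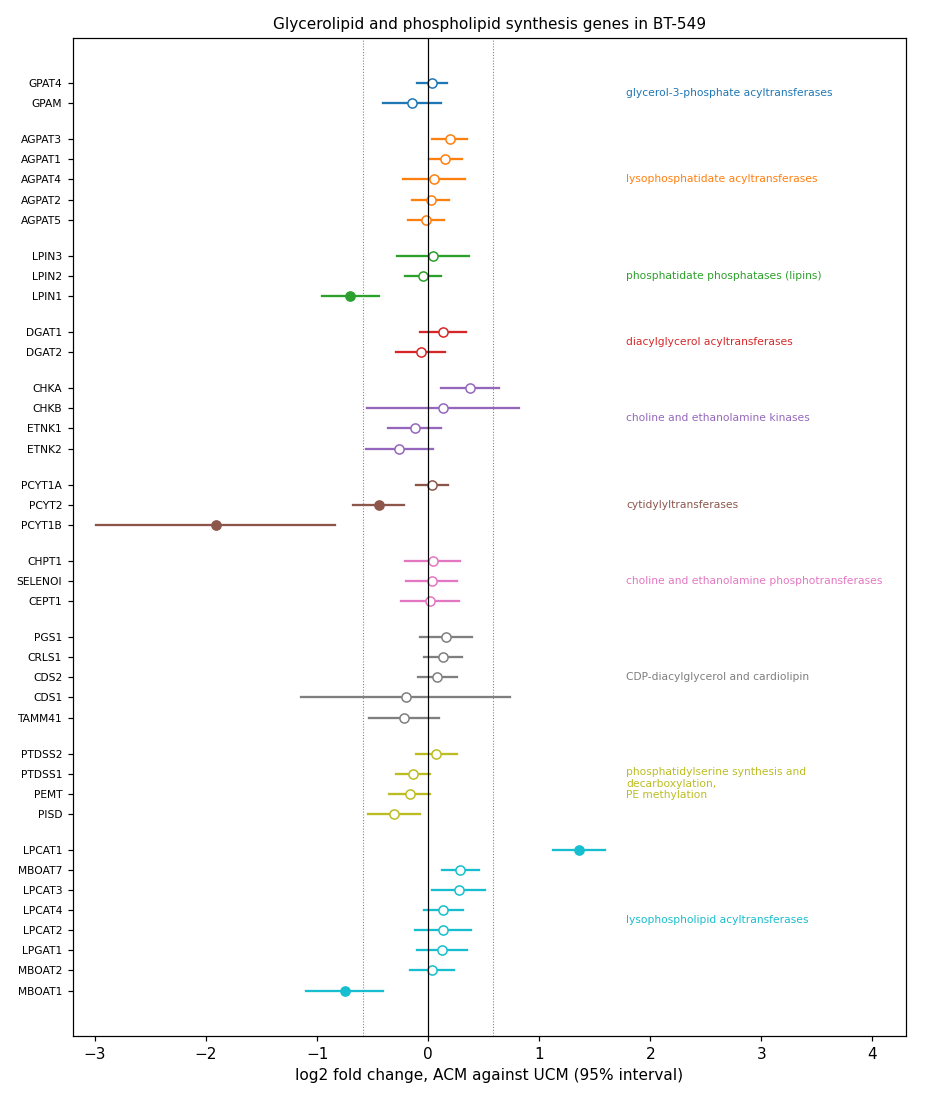
The log2 fold change of each of the 39 tested genes is plotted with its 95% interval (n = 3 libraries in each group), ordered by step of the pathway. Filled points mark the 5 genes called at an adjusted p at or below 0.05, and dotted lines mark a 1.5-fold change. LPCAT1 stands alone to the right at 1.36, and LPIN1, PCYT2, PCYT1B and MBOAT1 lie to the left.

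The clearest difference was in LPCAT1 (ENSG00000153395.10, chr5:1456480-1523962, minus strand, GRCh38), lysophosphatidylcholine acyltransferase 1, an enzyme best known for making the dipalmitoyl PC of lung surfactant. Its counts were 9407, 10138 and 9298 in the ACM libraries and 3714, 3852 and 3632 in the UCM libraries. In CPM these were 447, 571 and 505 against 176, 207 and 212. The lowest ACM library therefore stood well above the highest UCM library. The log2 fold change was 1.36 with an SE of 0.10 (95% interval 1.13 to 1.59), and the adjusted p in edgeR was 5.5e-04. LPCAT1 had the rank 4 by p among all genes tested. Among the 2405 genes averaging at least 100 CPM it had the rank 10 by log2 fold change. In TPM its level went from 80.0 ± 7.68 (SD, n = 3) in UCM to 199 ± 22.1 (SD, n = 3) in ACM. By mean it thereby moved from rank 6 to rank 3 of the 40 genes. In ACM the means of GPAT4, LPCAT1 and MBOAT7, at 202, 199 and 196 TPM, differed by less than their spread.

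The other lysophospholipid acyltransferases did not share a change of that size. MBOAT1 (ENSG00000172197.11, chr6:20099684-20212469, minus strand), which acylates lysoPE and lysophosphatidylserine, had 16.4, 12.3 and 19.6 CPM in ACM and 25.2, 29.6 and 26.8 CPM in UCM. Every ACM value lay under every UCM value, but the ACM libraries were spread, with a coefficient of variation of 22.6%. Its log2 fold change was −0.75 with an SE of 0.16 and an adjusted p of 0.0258 in edgeR. The call was lost when ACM replicate 1, ACM replicate 2, UCM replicate 2 or UCM replicate 3 was left out, with adjusted p in edgeR of 0.0702, 0.0555, 0.113 and 0.0983. MBOAT7 (chr19:54173412-54189882, minus strand), which puts arachidonate onto lysophosphatidylinositol, had 242, 278 and 239 CPM in ACM and 197, 208 and 216 CPM in UCM. Its groups did not overlap, and its log2 fold change of 0.29 (SE 0.08) missed the threshold at an adjusted p of 0.0546 in edgeR. LPCAT3, which prefers polyunsaturated acyl chains, had 21.5, 22.5 and 19.3 CPM in ACM and 16.8, 18.9 and 16.7 CPM in UCM. Its log2 fold change was 0.27 (SE 0.11) and its adjusted p was 0.161 in edgeR, although the ACM libraries all lay above the UCM libraries.

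The remaining acyltransferases of this step were close to their UCM levels. LPCAT4 had a log2 fold change of 0.14 (SE 0.08), LPCAT2 of 0.13 (SE 0.11), LPGAT1 of 0.12 (SE 0.10) and MBOAT2 of 0.04 (SE 0.09). By CPM the ACM libraries of LPCAT4 all lay above its UCM libraries by a small margin, while LPCAT2, LPGAT1 and MBOAT2 overlapped. Of the 8 genes of the step, 1 was called higher, 1 lower and 6 were not called. Summed TPM of the 8 genes was 339 ± 12.5 (SD, n = 3) in UCM and 498 ± 31.7 (SD, n = 3) in ACM, a ratio of 1.47. LPCAT1 made up 22.1%, 23.8% and 24.9% of that sum in the UCM libraries and 37.6%, 41.4% and 40.9% in the ACM libraries. Without LPCAT1, the sum of the other 7 genes was 259 ± 4.87 in UCM and 299 ± 11.1 in ACM (SD, n = 3), to which MBOAT7 contributed 161 and 196 TPM. For the other 9 steps the ratio of summed TPM ran from 0.872 to 1.09. These sums were not tested.

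**Figure D2:**
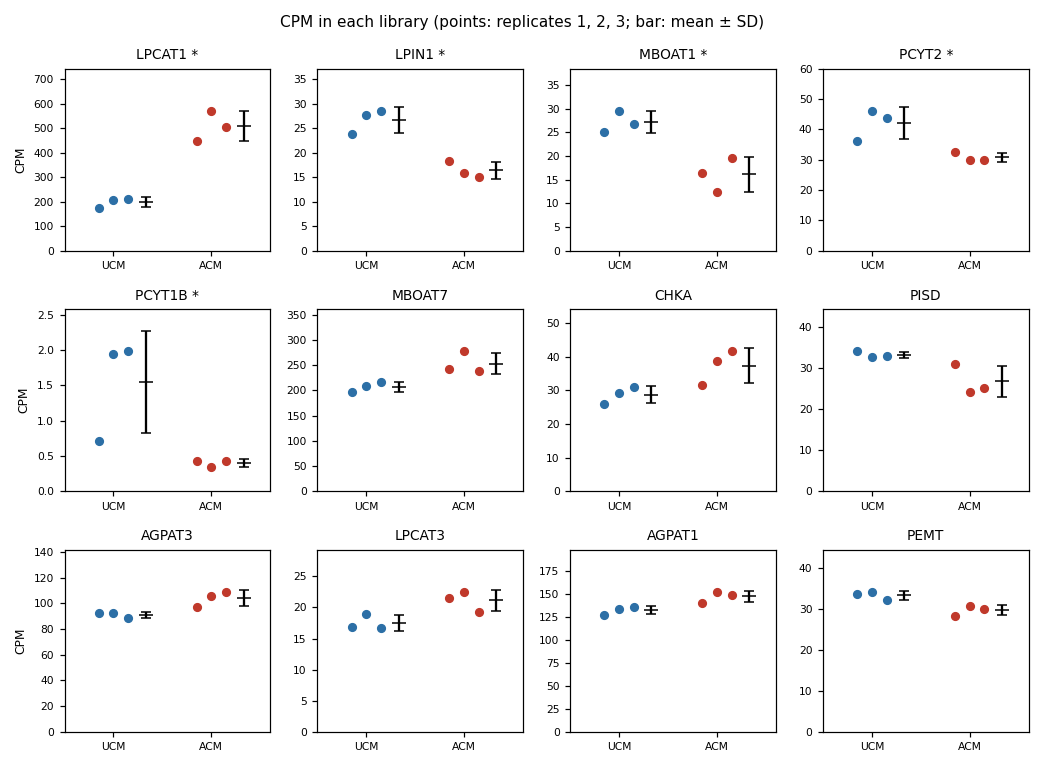
Each panel gives the CPM of 1 gene in the 3 UCM libraries (blue) and the 3 ACM libraries (red), with the mean and SD as a black bar and the axis starting at 0. The 12 genes have the lowest unadjusted p of the pathway, and an asterisk marks the 5 called. The points of the groups are apart in all 12 panels, and by the widest relative margin upward in LPCAT1.

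LPIN1 (ENSG00000134324.12, chr2:11677595-11827409, plus strand) codes for lipin-1, a phosphatidate phosphatase that makes the diacylglycerol used for triglyceride, PC and PE. It had 18.2, 15.9 and 15.1 CPM in ACM and 23.8, 27.8 and 28.6 CPM in UCM, with 277 to 384 counts behind the ACM values and 491 to 517 behind the UCM values. The groups did not overlap. The fit gave a log2 fold change of −0.70 with an SE of 0.12 (95% interval −0.96 to −0.45) and an adjusted p of 0.0089 in edgeR, so LPIN1 fell by 38.5%. Its paralogs stayed near 0, with −0.05 (SE 0.07) for LPIN2 and 0.05 (SE 0.15) for LPIN3. LPIN3 varied among the ACM libraries, at 22.4, 18.6 and 14.7 CPM. By mean TPM the lipins stood at 12.5 for LPIN2, 9.32 for LPIN3 and 9.28 for LPIN1 in UCM, where LPIN3 and LPIN1 differed by less than their spread. In ACM the means of LPIN2 and LPIN3, 12.2 and 10.5 TPM, also differed by less than their spread, and LPIN1 was lowest in every library.

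PCYT2 and PCYT1B code for the enzymes that use CTP to activate phosphoethanolamine and phosphocholine, steps that set the pace of the Kennedy pathway. PCYT2 (ENSG00000185813.11, chr17:81900958-81911432, minus strand), the ethanolamine enzyme, had 32.4, 30.0 and 29.9 CPM in ACM and 36.2, 46.2 and 43.8 CPM in UCM. The groups were apart, with UCM replicate 1 nearest to the ACM libraries. Its log2 fold change was −0.45 with an SE of 0.10 and an adjusted p of 0.0344 in edgeR. The call held without UCM replicate 1 but was lost when any of the other 5 libraries was left out, with adjusted p in edgeR of up to 0.162. Part of PCYT2 is overlapped on the opposite strand by ANAPC11 and NPB, and the sources used here do not say whether counting used the strand.

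PCYT1B (ENSG00000102230.14, chrX:24558087-24672677, minus strand), the minor choline isoform, had 9, 6 and 8 counts in ACM and 15, 36 and 34 counts in UCM. All of these are low, and UCM replicate 1 lay closer to the ACM libraries than to the other UCM libraries. The log2 fold change was −1.91 with an SE of 0.49 and an adjusted p of 0.0474 in edgeR. Its level was under 1 TPM in all 6 libraries, and the difference was −0.51 on the log2(TPM + 1) scale (adjusted p 0.110 in limma) and −1.68 on the log2(TPM + 0.1) scale (adjusted p 0.0645 in limma). With effective lengths in DESeq2 it was −2.38, with an adjusted p of 0.0057. The call of PCYT1B was lost when any library other than UCM replicate 1 was left out, with adjusted p in edgeR from 0.101 to 0.192. PCYT1A, the major choline isoform, stood at 38.7 ± 0.566 TPM in UCM and 40.6 ± 5.25 TPM in ACM (SD, n = 3). Its log2 fold change was 0.03 with a 95% interval of −0.11 to 0.18.

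Stretches of 250 bases before the listed transcription start are shown for LPCAT1, LPIN1 and PCYT2, 3 of the called genes, so that the DNA at these starts can be seen beside their changes. The sequences are from RefSeq (GRCh38.p14), read 5′ to 3′ on the strand of the gene. RefSeq lists 1 start for LPCAT1, 3 for LPIN1 and 2 for PCYT2, and the first listed is given. Capitals mark the GC box (GGGCGG, or CCGCCC on the other strand) in LPCAT1 and LPIN1, and the CCAAT box (ATTGG on the other strand) in PCYT2.
LPCAT1, chr5:1523961-1524210, minus strand: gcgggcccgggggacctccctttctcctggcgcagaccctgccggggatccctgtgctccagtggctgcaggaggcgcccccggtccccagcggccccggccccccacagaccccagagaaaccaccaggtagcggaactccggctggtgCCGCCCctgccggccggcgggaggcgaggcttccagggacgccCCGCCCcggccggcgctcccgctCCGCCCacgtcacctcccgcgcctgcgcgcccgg
LPIN1, chr2:11746382-11746631, plus strand: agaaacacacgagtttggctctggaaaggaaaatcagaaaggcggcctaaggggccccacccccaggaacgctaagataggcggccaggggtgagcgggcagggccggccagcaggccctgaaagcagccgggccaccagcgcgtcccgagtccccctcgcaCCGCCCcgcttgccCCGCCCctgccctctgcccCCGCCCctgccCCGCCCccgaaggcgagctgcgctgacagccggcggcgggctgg
PCYT2, chr17:81911400-81911649, minus strand: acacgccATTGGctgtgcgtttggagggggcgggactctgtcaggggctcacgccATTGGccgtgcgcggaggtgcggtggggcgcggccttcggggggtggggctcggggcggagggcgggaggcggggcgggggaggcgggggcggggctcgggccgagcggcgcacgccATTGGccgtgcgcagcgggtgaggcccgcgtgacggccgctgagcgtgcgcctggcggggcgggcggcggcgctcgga
The LPCAT1 stretch holds 3 GC boxes and the LPIN1 stretch 4, and the base composition was 78.8% and 72.4% G or C. PCYT2 holds 3 CCAAT boxes, which begin 243, 195 and 78 bases before its start, and 7 GC boxes that are not in capitals. The other starts differed, with 0 and 1 GC boxes before the other 2 starts of LPIN1, and 3 GC boxes and 0 CCAAT boxes before the other start of PCYT2. PCYT1B, which was called on few reads and is not printed, has 0 GC boxes before both of its listed starts and 1 CCAAT box before the second. No promoter was found for MBOAT1, the remaining called gene, so it is not part of the motif counts. The CCAAT boxes of PCYT2 lie in nearly the same 18 letters each time, and these are set under each other here.
PCYT2 at 243 bases before the start: cacgccattggctgtgcg
PCYT2 at 195 bases before the start: cacgccattggccgtgcg
PCYT2 at 78 bases before the start: cacgccattggccgtgcg
Promoters were found for 31 of the 40 genes. Only the first listed start of each of these 31 was searched, whereas the shares of all stretches count every listed start. The shares therefore compare unlike sets. Searched on both strands, at least 1 GC box was present in 22 of these 31 and in 42.6% of all 35116 listed promoter stretches of the same length, and at least 1 CCAAT box in 8 of 31 and 32.0% of all. At least 3 CCAAT boxes, as in PCYT2, were present in 4 of the 31 and in 2.93% of all stretches. At least 3 GC boxes were present in 11 of the 31 and 13.9% of all, at least 4 in 8 of the 31 and 7.63% of all, and at least 7 in 2 of the 31 and 1.12% of all. The letters of a sterol regulatory element (TCACNCCAC, in 0.883% of all), an E-box (CACGTG, in 6.34%) and an ATF4 element (TGATGNAA, in 3.14%) were found in 0 of the 31. These matches are of letters only, and binding was not measured.

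Of the 3 acyltransferases that take glycerol-3-phosphate into the pathway, GPAT4 had by far the most RNA. GPAT4, a glycerol-3-phosphate acyltransferase of the endoplasmic reticulum, stood at 199 ± 4.92 TPM in UCM and 202 ± 6.71 TPM in ACM (SD, n = 3). GPAM, the mitochondrial enzyme, stood at 3.72 ± 0.195 and 3.31 ± 0.361 TPM (SD, n = 3). Neither was called, with log2 fold changes of 0.04 (95% interval −0.10 to 0.17) and −0.15 (95% interval −0.41 to 0.11). GPAT3 did not pass the filter, with 10, 7 and 17 counts in ACM and 4, 6 and 2 counts in UCM. Every ACM count of GPAT3 was above every UCM count, but its TPM overlapped, at 0.26, 0.23 and 0.50 with ACM against 0.68, 0.40 and 0.22 with UCM. The effective length assigned to GPAT3 was 2612, 2351 and 2652 bases in ACM and 406, 1146 and 777 bases in UCM, so counts and TPM put its groups in a different order.

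**Figure D3:**
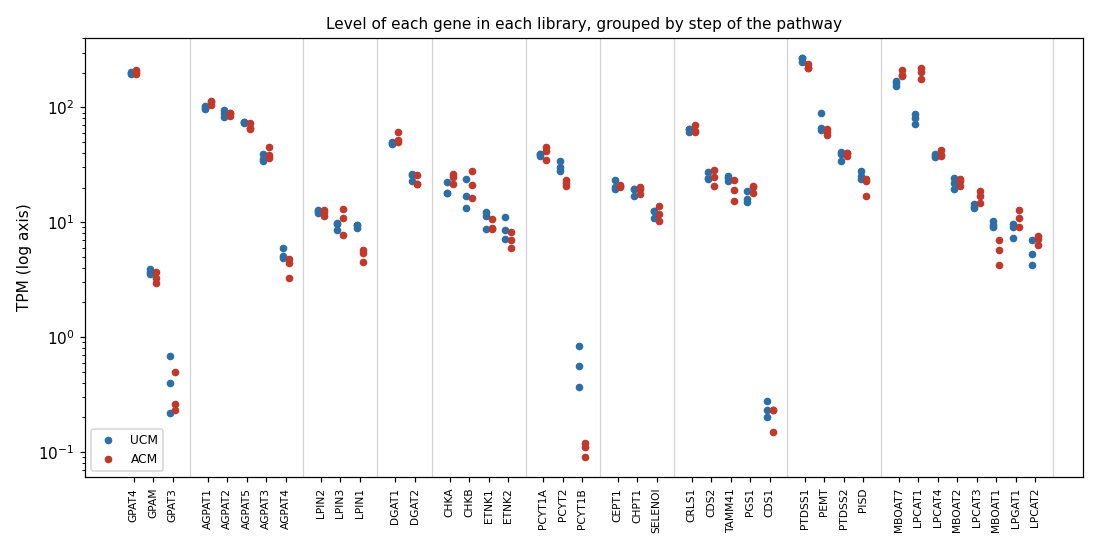
TPM of all 40 genes in the 3 UCM libraries (blue) and 3 ACM libraries (red) on a log axis, grouped by step of the pathway and ordered within a step by the UCM mean. GPAT4, PTDSS1 and MBOAT7 lead their steps in UCM, LPCAT1 joins MBOAT7 at about 200 TPM in ACM, and GPAT3, PCYT1B and CDS1 lie under 1 TPM in every library.

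The lysophosphatidate acyltransferases AGPAT1 to AGPAT5 add the second acyl chain. AGPAT1 had 141, 153 and 149 CPM in ACM and 127, 134 and 137 CPM in UCM, and AGPAT3 had 97.1, 106 and 109 CPM in ACM and 92.6, 92.2 and 88.3 CPM in UCM. Both sets of libraries were apart by small margins. Their log2 fold changes were 0.15 (SE 0.07, adjusted p 0.189 in edgeR) and 0.19 (SE 0.07, adjusted p 0.134 in edgeR). AGPAT2, the isoform linked to congenital lipodystrophy, was at 0.02 (SE 0.07), AGPAT4 at 0.05 (SE 0.13) and AGPAT5 at −0.02 (SE 0.07). In UCM the order of levels was AGPAT1, AGPAT2, AGPAT5, AGPAT3 and AGPAT4, from 99.8 ± 2.63 down to 5.29 ± 0.622 TPM (SD, n = 3).

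The last step of triglyceride synthesis belongs to DGAT1 and DGAT2, which acylate diacylglycerol. DGAT1 had 69.1, 55.3 and 58.0 CPM in ACM and 56.4, 56.6 and 53.4 CPM in UCM, and the groups overlapped. DGAT2 had 32.3, 33.3 and 38.0 CPM in ACM and 33.1, 39.6 and 35.9 CPM in UCM, which also overlapped. The log2 fold changes were 0.13 (95% interval −0.07 to 0.34) for DGAT1 and −0.07 (95% interval −0.29 to 0.15) for DGAT2. Neither interval reached a 1.5-fold change.

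Of the kinases that open the Kennedy pathway, CHKA, the choline kinase often raised in tumors, had 31.5, 38.8 and 41.7 CPM in ACM and 26.0, 29.3 and 30.9 CPM in UCM. The lowest ACM library was just above the highest UCM library. Its log2 fold change was 0.38 (SE 0.12) with an adjusted p of 0.0883 in edgeR, and it was 0.50 with an adjusted p of 0.0333 in edgeR without ACM replicate 1. CHKB had 22.9, 16.9 and 11.0 CPM in ACM and 19.4, 14.9 and 11.8 CPM in UCM. Replicate 1 was the highest and replicate 3 the lowest in both conditions, and the 95% interval of CHKB was wide, from −0.55 to 0.82. CHKB shares its strand with the readthrough gene CHKB-CPT1B, so its counts are uncertain. Protein-coding genes on the same strand also overlap PCYT1A, CRLS1, AGPAT3 and LPCAT2. Of the 40 genes, 16 overlap a protein-coding gene on either strand, and how far this affected their counts was not tested. The ethanolamine kinases ETNK1 and ETNK2 were at −0.12 (SE 0.11) and −0.26 (SE 0.14).

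CHPT1, CEPT1 and SELENOI join diacylglycerol to the activated head groups to make PC and PE. Their log2 fold changes of 0.04, 0.02 and 0.03 were among the smallest of the pathway, and for all 3 genes the ACM and UCM libraries overlapped. Their summed TPM was 51.6 ± 1.65 in UCM and 51.8 ± 0.421 in ACM (SD, n = 3). In the branch to cardiolipin, the lipid of the inner mitochondrial membrane, CDS2, PGS1, CRLS1 and TAMM41 had log2 fold changes of 0.08, 0.16, 0.13 and −0.22, and none of the 4 was called. CDS1 was scarce, at under 1 CPM in every library, and its 95% interval ran from −1.14 to 0.73.

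Phosphatidylserine synthase 1 (PTDSS1) was the most abundant gene of the pathway per length, at 263 ± 11.4 TPM in UCM and 227 ± 9.96 TPM in ACM (SD, n = 3). ACM libraries had 231, 248 and 248 CPM of PTDSS1, and UCM libraries 248, 281 and 270 CPM. The highest ACM library reached the lowest UCM library to within a small fraction of a CPM. For PTDSS1 the fit gave a log2 fold change of −0.14 (SE 0.07) with an adjusted p of 0.276 in edgeR. PTDSS2 was at 0.07 (SE 0.08). PISD, which decarboxylates phosphatidylserine to PE in mitochondria, had 30.9, 24.1 and 25.1 CPM in ACM and 34.1, 32.6 and 32.8 CPM in UCM. The UCM libraries lay close together and above all ACM libraries. PISD was at −0.31 on the log2 scale (SE 0.11) with an adjusted p of 0.116 in edgeR, and −0.42 with an adjusted p of 0.0413 in edgeR without ACM replicate 1. PISD overlaps SFI1 on the opposite strand.

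PEMT, which methylates PE to PC and is best known from liver, had 28.3, 30.8 and 30.2 CPM in ACM and 33.7, 34.3 and 32.2 CPM in UCM. The groups were apart, and the log2 fold change was −0.17 (SE 0.08) with an adjusted p of 0.260 in edgeR. Summed TPM of PTDSS1, PTDSS2, PISD and PEMT was 399 ± 7.39 in UCM and 348 ± 14.4 in ACM (SD, n = 3), a ratio of 0.872. Most of that difference was in PTDSS1, and none of the 4 genes was called. Effective lengths of PTDSS1 were 1474, 1554 and 1504 bases in ACM and 1444, 1469 and 1443 bases in UCM. A longer effective length lowers TPM and not the count. The UCM mean of PEMT was raised by UCM replicate 1, at 88.6 TPM beside 66.2 and 63.2 TPM.

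**Figure D4:**
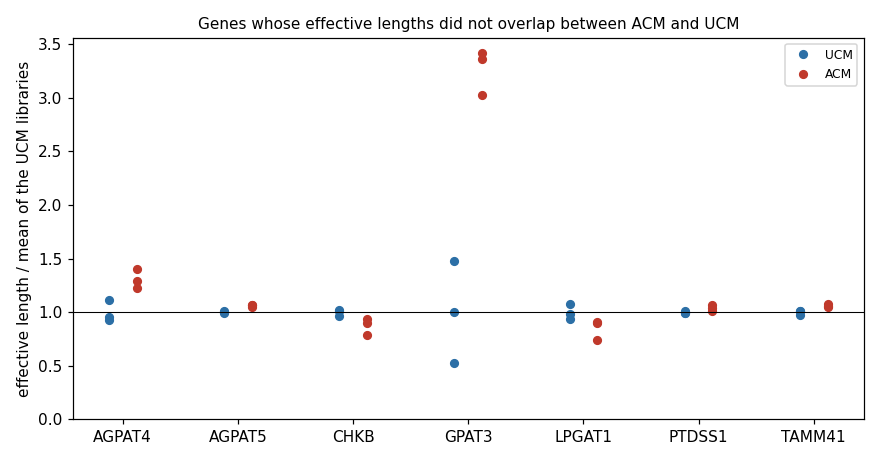
Effective length of 7 genes in each library, divided by the mean of the 3 UCM libraries (blue, UCM; red, ACM). The 7 are the 6 tested genes whose groups did not overlap and GPAT3, which was not tested. GPAT3 and AGPAT4 were longer in ACM, LPGAT1 and CHKB shorter, and AGPAT5, PTDSS1 and TAMM41 differed by small margins.

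RSEM divides the reads of a gene among its transcripts and reports an effective length averaged over them, so a shift in that length moves TPM without moving the count. The effective lengths of the ACM and UCM libraries did not overlap for 6 of the 39 tested genes, with 4 longer and 2 shorter in ACM, or 15.4% beside 9.19% of all genes. AGPAT4 was 6825, 6446 and 7401 bases in ACM and 4907, 5037 and 5865 bases in UCM. Its TPM lay below UCM in every ACM library, at 4.75, 4.41 and 3.28 against 6.00, 5.03 and 4.84, while its CPM overlapped. LPGAT1 went the other way, with 5460, 5523 and 4480 bases in ACM and 5949, 6526 and 5680 bases in UCM. LPCAT1 had nearly equal lengths, from 3475 to 3627 bases over the 6 libraries, and MBOAT1, with 1 annotated transcript, from 4042 to 4049 bases. For PCYT1B the lengths were 5279, 5027 and 5031 bases in ACM and 2817, 3300 and 5031 bases in UCM, from few reads. Which transcripts were used was not tested.

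Other genes of the same chemistry were described from a list of 41, of which 30 passed the filter. The list holds the enzymes that supply glycerol-3-phosphate, lipin regulators, diacylglycerol kinases, choline transporters and cardiolipin remodelling. At the same threshold edgeR called 0 of the 30, beside 3.35% and 2.21% of all genes. At an unadjusted p at or below 0.05 there were 10, with 6 higher and 4 lower, or 33.3% beside 23.3% of all genes, and DESeq2 called 1 higher. The lowest adjusted p in edgeR was 0.0717, for TAFAZZIN, which remodels cardiolipin, at a log2 fold change of 0.37 (SE 0.11). The median log2 fold change of the 30 was 0.04, and values ran from −0.83 (SE 0.31) for FLVCR2 to 0.57 (SE 0.24) for DGKA. Both ends rested on few counts, with 25 to 56 in a library for FLVCR2 and 41 to 120 for DGKA. CTDNEP1, the phosphatase that activates lipins, was at 0.00 (SE 0.07), and BSCL2, the seipin of lipid droplet assembly, at 0.23 (SE 0.11).

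**Figure D5:**
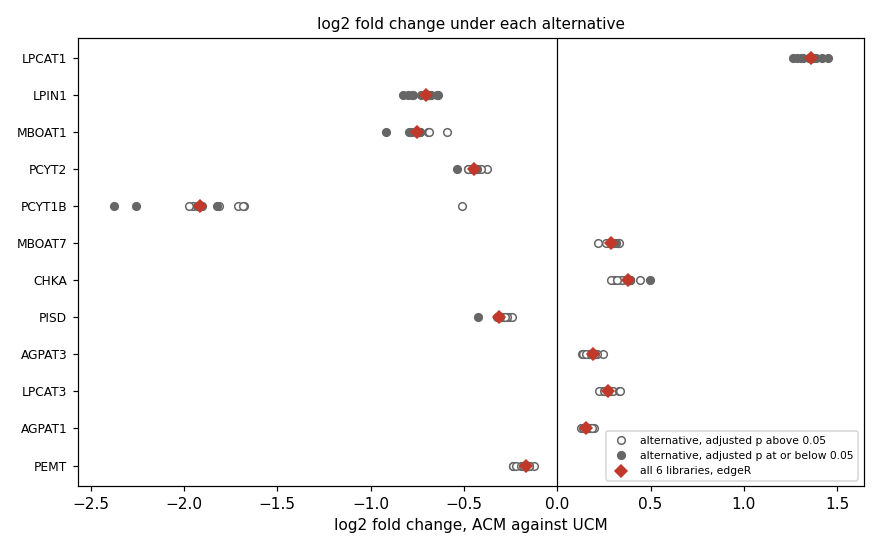
The log2 fold change of the 12 genes with the lowest unadjusted p is shown with all 6 libraries in edgeR (red diamond) and under each alternative (circles, filled where the adjusted p was at or below 0.05). LPCAT1 and LPIN1 are filled at all 14 alternatives, while MBOAT1 is at 8 of 14, PCYT2 at 7 of 14 and PCYT1B at 6 of 13.

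LPCAT1 and LPIN1 were called under all 14 alternatives tried, with log2 fold changes from 1.26 to 1.45 and from −0.83 to −0.64. The highest adjusted p among the alternatives was 0.0089 for LPCAT1 in edgeR and 0.0490 for LPIN1 in edgeR. MBOAT1 was called under 8, PCYT2 under 7 and PCYT1B under 6 of the 13 that could test it, and adjusted p reached 0.113, 0.162 and 0.192 in edgeR. MBOAT7, not called with all 6 libraries in edgeR, was called under 6 of 14, with adjusted p from 0.0066 to 0.186 in edgeR. The 0.0066 came from the filter of at least 1 count in total. That filter gave LPCAT1 an adjusted p of 4.2e-60 in edgeR, beside 4.1e-07 to 0.0089 in the other edgeR fits. Its calls are therefore not on the scale of the others. The sign of all 12 genes with the lowest p was the same under each alternative that could test them.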

How the data were processed

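RNA from 3 ACM and 3 UCM libraries of BT-549 cells was sequenced as paired ends after polyA selection. The authors trimmed reads with Trim Galore, aligned them with STAR and quantified them with RSEM on GRCh38, per the submitters' processing notes; versions, annotation and strand setting were not given in the sources used here. The deposited tables give expected counts per gene, which RSEM estimates, and the authors' TPM and effective length. FPKM columns and the authors' fold changes and p-values were not used.

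Expected counts were rounded and tested in edgeR 4.0.16 (R 4.3.3; TMM scaling after filterByExpr, then a robust quasi-likelihood test with no covariate besides medium) with Benjamini-Hochberg adjustment over all 14451 genes tested. The SE is the absolute log2 fold change divided by the square root of F. The 95% intervals use the total degrees of freedom of the test, which add those shared across genes to the residual ones. CPM is the rounded count scaled to the TMM-adjusted library size. Depth was 17135288 to 21053257 counts per library, and with 3 libraries in each group an exact permutation test of a single gene could not go under 0.1. The scripts were tested on simulated data.

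The 40 members, the lists and the tests were chosen with earlier results of these data known. Values in each library are given for the 12 tested members with the lowest p, for members whose log2 fold change differed by over 0.5 between counts and log2(TPM + 1), and for members that failed the filter. Other members named with such values were chosen after their values were seen. Gene positions are from GENCODE, in which all 40 matched, and promoters from RefSeq (GRCh38.p14). Alternatives were DESeq2 1.42.0 with and without effective lengths, RLE scaling, looser and stricter count filters (1 in total, or 10 in every library), limma 3.58.1 on log2(TPM + 1) and log2(TPM + 0.1), a block on the replicate number, and leaving out each library.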

Additional observations from a re-analysis of the deposited data

How the results depend on the processing

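The 5 calls rested on different support. With 1 member called higher and 4 lower, the number higher was 2 with DESeq2, 2 with DESeq2 and effective lengths, 2 with RLE size factors, 2 with at least 10 counts in every library and 3 with at least 1 count in total. The number lower was 1 with limma on log2(TPM + 1) and 1 on log2(TPM + 0.1), where the members' median log2 fold change was −0.0073 and −0.0083 in place of 0.04. Leaving out 1 library gave 1 to 2 members higher, 1 to 4 lower and a median from 0.0068 (without ACM replicate 1) to 0.0504. Of the related genes, DESeq2 called 1 higher, the filter of at least 1 count in total 3 higher, and DESeq2 with effective lengths 2 lower. Leaving out 1 library gave 0 to 2 related genes higher and 0 to 1 lower, with medians from −0.01 to 0.05. The cause of these shifts was not tested. Over the single members with the lowest p, 137 values kept their side of the threshold, 10 gained and 20 lost the call, and 0 reversed.

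With the replicate block, edgeR called 3 members higher (LPCAT1, MBOAT7 and CHKA) and 4 lower, and 3 related genes higher. Deviations from the group means correlated by 0.36 for replicate 1, 0.04 for replicate 2 and 0.23 for replicate 3 across 14451 genes, and ACM replicate 3 correlated best with UCM replicate 2 (0.24). Not every pair was over 0.1, so the numbers were not taken to pair the libraries, and a factor shared by part of them was not tested.

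Depth limits PCYT1B, CDS1 and GPAT3, at 2 to 36 counts in a library. The bulk RNA of 1 cell line at 1 time point gives transcript levels, and neither enzyme activity nor lipids were measured in these files.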
